A study of Mus musculus with 12 samples.

Results

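The 50 genes described here encode molecular chaperones, their partner proteins, the folding enzymes of the endoplasmic reticulum (ER) and the heat shock factors HSF1 and HSF2. They were taken by gene name from a table of 37991 Ensembl genes with RNA-seq read counts in 12 samples, by a rule that uses no measured value. All 50 passed a filter on low counts that left 13538 genes for testing. The samples are B cells from the spleens of C57B6 mice aged 8 weeks, in 3 biological replicates for each of 4 groups. Cre-only mice carry the CD23-iCre transgene, and Runx1 c-k/o mice, called c-k/o from here on, carry the same transgene together with Runx1 alleles in which LoxP sites flank exon 4, so the controls also express Cre. This Cre acts late in B cell development, from the transitional B cell onwards. Other cell types and B cells carrying CD43, a marker of activation, were taken out by negative selection. The resting B cells that remained were lysed either at 0 h or after 3 h in culture with anti-IgM and IL-4. Anti-IgM crosslinks the BCR, and IL-4 is a cytokine that supports B cell survival. No sample was cultured for 3 h without anti-IgM and IL-4, so the effect of these agents and that of culture cannot be told apart.

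Chaperones bind proteins that are not yet folded and release them in cycles of ATP binding and hydrolysis. In the cytosol, J proteins hand unfolded chains to HSP70, prefoldin passes actin and tubulin to the ring-shaped TRiC chaperonin, and HSP90 acts late, on kinases and steroid receptors, with the help of cochaperones. Mitochondria have their own HSP70, HSP60 and HSP10, and the ER has BiP (Hspa5), GRP94 (Hsp90b1), the lectins calnexin and calreticulin and the protein disulfide isomerases. Constitutive chaperones such as HSC70 (Hspa8) are present in all cells, whereas Hspa1a and Hspa1b, which encode inducible HSP70, are switched on by HSF1 when proteins misfold. Naive B cells are small quiescent cells, and crosslinking of the BCR starts their growth and their entry into the cell cycle.

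Promoter sequences are shown because many genes of this kind are known targets of 2 elements: heat shock elements bound by HSF1, and the ER stress element. RefSeq windows reaching from 250 bases before to 50 bases after a transcription start (GRCm38.p6) were held for 42 of the 50 genes, and every one of them matched mm9 exactly, so positions are given in mm9. The genes without a window were Cct4, Hsp90aa1, Hsp90ab1, Hspa8, Hspa9, Pfdn1, Dnajc2 and Hsf1. The ER stress element (CCAAT and CCACG with 9 bases of any kind between them, searched on both strands) was held by 6 of the 42 genes (14.3%), all of them in the ER group, and by 0.137% of all 27025 genes with a window. The element is in capitals in the following stretches, each read 5′ to 3′ on the strand of its gene, and in Calr it lies on the opposite strand and so reads CGTGG first.
Hspa5, chr2:34627540-34627568, plus strand: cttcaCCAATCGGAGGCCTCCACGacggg
Hsp90b1, chr10:86168363-86168421, minus strand: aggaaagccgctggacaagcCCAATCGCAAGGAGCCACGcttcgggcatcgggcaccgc
Canx, chr11:50139282-50139340, minus strand: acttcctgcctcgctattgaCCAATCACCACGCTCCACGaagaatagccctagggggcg
Calr, chr8:87370954-87371012, minus strand: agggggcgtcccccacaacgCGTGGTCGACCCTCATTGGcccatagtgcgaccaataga
Pdia6, chr12:17273277-17273335, plus strand: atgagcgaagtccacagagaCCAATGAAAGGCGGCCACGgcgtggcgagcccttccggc
Dnajc3, chr14:119337029-119337087, plus strand: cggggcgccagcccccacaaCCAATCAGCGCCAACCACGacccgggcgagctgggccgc
Hsp90b1 held a second copy closer to its start, and Pdia4, Pdia3 and Dnajb11 held no match to these letters in this window.

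Heat shock elements are repeats of GAA and TTC in alternation. A run of 3 units (GAA, TTC and GAA or TTC, GAA and TTC, with NN between units, both strands) was found for 5 of the 42 genes (11.9%) and for 0.662% of all genes with a window. A run of 2 units (GAA and TTC or TTC and GAA, with NN between them), which every run of 3 units also holds, was found for 14 of the 42 genes (33.3%) and for 17.0% of all genes, so this shorter match was common. Hspa1a and Hspa1b held a run of 2 units at the same distance from their starts, within stretches that were identical in both genes. The repeats are in capitals in the following stretches. Those of Hsph1, Dnajb6 and Chordc1 overlap an annotated exon of their own gene, the last one overlaps an exon of Hspd1, and of the ER stress elements only that of Hspa5 lies in a stretch that overlaps an exon.
Hspa1a, chr17:35109178-35109225, minus strand: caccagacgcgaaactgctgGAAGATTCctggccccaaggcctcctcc
Hspa1b, chr17:35096260-35096307, minus strand: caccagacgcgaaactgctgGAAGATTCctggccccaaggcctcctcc
Hsph1, chr5:150438855-150438883, minus strand: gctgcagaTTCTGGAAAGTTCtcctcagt
Dnajb6, chr5:30062384-30062412, plus strand: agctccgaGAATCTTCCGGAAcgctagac
Chordc1, chr9:18096704-18096732, plus strand: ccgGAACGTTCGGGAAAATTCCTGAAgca
Hspe1 and Hspd1, chr1:55144897-55144926, strand of Hspe1: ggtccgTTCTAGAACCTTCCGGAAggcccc
Hspd1 and Hspe1 lie head to head and share the last of these stretches. The core letters bound by RUNX factors (TGTGGT or TGCGGT, both strands) were in the windows of 10 of the 42 genes (23.8%), against 25.03% of all genes. A match is a description of the sequence and not a bound site.

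Totals ranged from 14442251 to 23641552 counts per sample, and levels are given as normalized CPM, in which counts are divided by library sizes corrected by TMM. The lowest count of any of the 50 genes in any sample was 19, in Hspa1a, against a floor of 3 counts, which covers counting error only. Runx1 itself was at 95.7 to 103 normalized CPM in resting c-k/o cells and at 81.8 to 86.7 in resting Cre-only cells. A count over the whole gene includes exons outside the deletion and so does not check the genotype. The 8 B cell markers summed to 8645 to 9380 normalized CPM at rest and to 2925 to 3349 at 3 h. c-k/o replicate 1 at 3 h and replicate 2 at rest are called here the libraries that stood apart, because their log2 deviations from their group means were the most alike of all pairs from different groups (Pearson r = 0.477 across genes, which are not independent). Each library was also set against the mean of the rest of its group. The SD of this log2 deviation over all tested genes was 0.611 in the 3-h library, the highest of the 12. That of the resting library was 0.482, the highest at rest but within the 0.325 to 0.483 of the other 4 c-k/o libraries, and the 6 Cre-only libraries were at 0.272 to 0.334. Of the 50 genes, 39 were highest in replicate 2 among the resting c-k/o samples and 42 in replicate 1 among the 3-h c-k/o samples, as were 50.5% and 41.1% of all tested genes. In comparisons of genotypes the medians and the counts above 0 are therefore given with and without these samples. Other values there use all samples unless stated.

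The first question was how the folding machinery changed within 3 h of activation. Most chaperones rose, by up to 4.63-fold, whereas the stress-inducible HSP70 genes and a pair of J proteins fell steeply. In Cre-only cells 37 of the 50 genes rose, 5 fell and 8 did not pass the test (edgeR's quasi-likelihood F test, adjusted p under 0.05 over all tested genes). Activation moved most of the transcriptome, and 38.6% of all tested genes rose and 36.4% fell. The median log2 fold change of the 50 genes was 1.14, against 0.03 over all tested genes. In c-k/o cells 38 of the 50 genes rose and 5 fell, with a median of 1.18, against 37.7% of all tested genes higher and 36.6% lower. Summed over the 50 genes, the level went from 11802 ± 906 normalized CPM at rest to 25227 ± 584 at 3 h in Cre-only cells (SD, n = 3), which is 1.18% and 2.52% of the library. In c-k/o cells the sums were 13152 ± 1496 and 28752 ± 4561, and the ratio of the means was 2.14 in Cre-only and 2.19 in c-k/o cells. These are shares of the RNA in each sample, so a change in RNA per cell is not seen, and in bulk samples fewer cells of a type and less RNA per cell cannot be told apart. When a factor of unwanted variation (RUVs) was added to the edgeR model, the median fell to 0.62 in Cre-only and 0.66 in c-k/o cells. In that fit 33 and 34 of the 50 genes were higher, against 4755 and 4493 of all 13538 tested genes. In DESeq2 with such a factor the medians were 0.51 and 0.59. The factor was derived from differences between replicates, with all tested genes as controls, including those that changed on activation. Its values can therefore overlap with activation, and how much of the change it took up for that reason was not tested. This also holds for the calls lost with the factor in the following paragraphs.

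**Figure D1:**
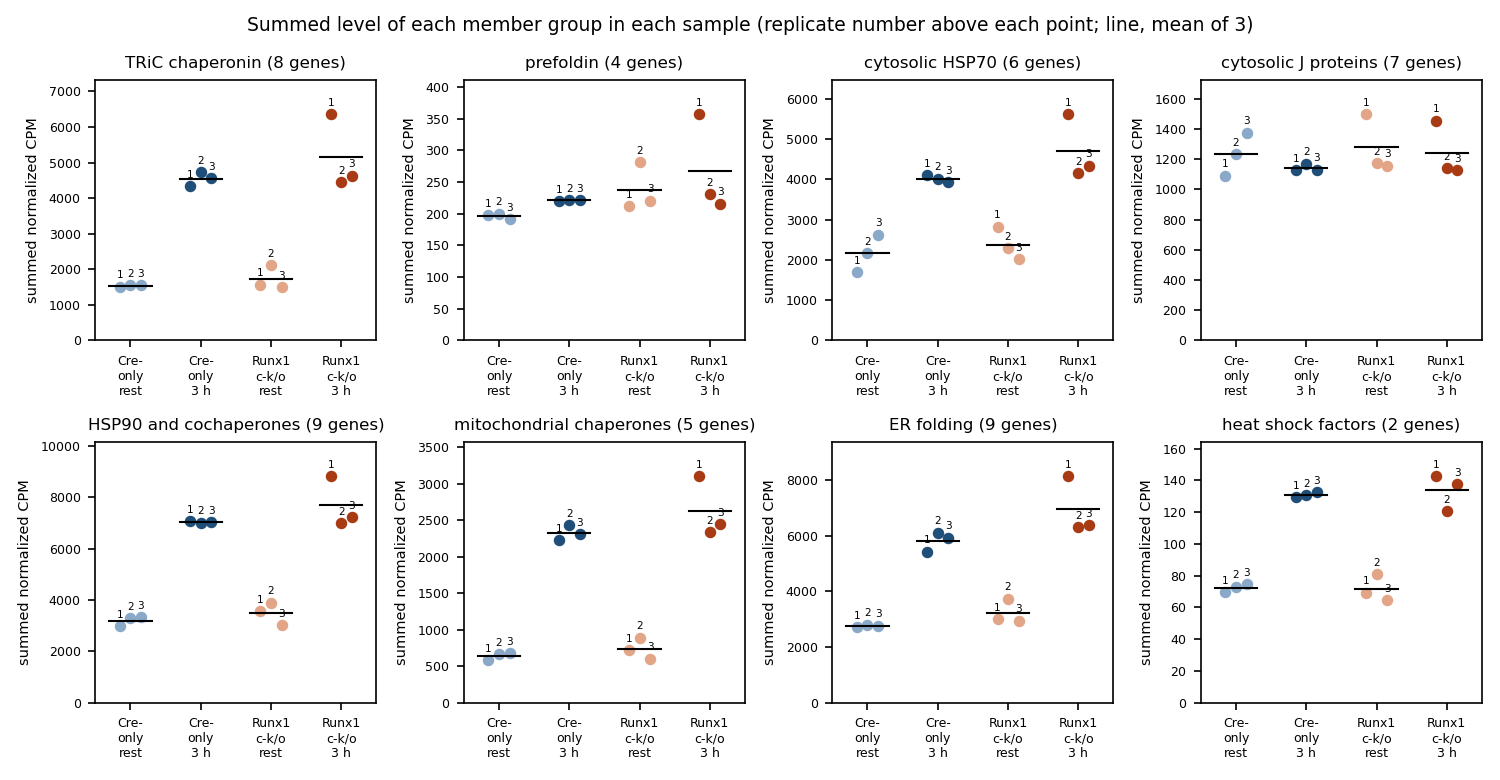
Each panel sums the normalized CPM (vertical axis, from 0) of the genes of a group in each of the 12 samples, coloured by genotype and time, with replicate numbers above the points and a line at the mean of 3. The 3-h samples lie above the resting samples in the TRiC, HSP90, mitochondrial, ER and cytosolic HSP70 panels, and in most panels replicate 1 of the 3-h c-k/o group is the highest point.

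All 8 subunits of TRiC, the chaperonin that folds actin and tubulin, rose in both genotypes. Their log2 fold changes in Cre-only cells ranged from 1.08 (Cct2) to 2.21 (Cct3), with a median of 1.56. Cct3 was the gene of the 50 that rose most in Cre-only cells. It was at 146, 148 and 153 normalized CPM in resting and 665, 715 and 695 in 3-h Cre-only cells. In c-k/o cells it was at 147, 252 and 142 at rest and at 958, 666 and 682 at 3 h. The resting and 3-h samples did not overlap in either genotype, and the rise was 4.63-fold in Cre-only cells (log2 fold change 2.21 ± 0.21 SE, edgeR adjusted p = 1.19e-06) and 4.25-fold in c-k/o cells (adjusted p = 2.06e-06). Cct6a, with a log2 fold change of 2.14, was at 99.2, 109 and 108 normalized CPM in resting and 444, 489 and 460 in 3-h Cre-only cells, and Cct8 rose by 1.86. The subunits work as a ring with equal numbers of each, but their RNA levels per kilobase of exon were unequal. At rest in Cre-only cells they ranged from 31.8 CPM per kb (Cct3) to 159 (Cct2), a ratio of 5.003. At 3 h the lowest was Tcp1 at 94.1 and the highest Cct2 at 337 CPM per kb, a ratio of 3.59. The spread between subunits was thus smaller at 3 h in Cre-only cells, and likewise in c-k/o cells, where the ratio was 4.47 at rest and 3.88 at 3 h. These ratios rest on the annotated exon lengths, and no test was made.

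Prefoldin delivers its clients to TRiC, and its 4 measured subunits did not move together. Pfdn4 and Pfdn2 rose by 1.65 and 1.37 on the log2 scale in Cre-only cells and by 1.62 and 1.37 in c-k/o cells. Pfdn1 was at 17.1 to 19.5 normalized CPM in all 6 Cre-only samples and did not pass the test (log2 fold change 0.09). With the RUVs factor, DESeq2 called it lower in both genotypes (-0.45 and -0.56) and edgeR in c-k/o cells (-0.49, adjusted p = 0.0104). Pfdn5 was the only subunit that fell: its Cre-only samples were at 144, 149 and 139 normalized CPM at rest and at 106, 109 and 108 at 3 h (log2 fold change -0.42 ± 0.17, adjusted p = 0.0365). The c-k/o samples of Pfdn5 overlapped, with 159, 201 and 166 at rest and 181, 116 and 105 at 3 h (-0.39 ± 0.17, adjusted p = 0.0519, and 0.0378 in DESeq2's Wald test). The high 3-h value was that of replicate 1, a library that stood apart. Without it the log2 fold change was -0.67 and passed the test in edgeR (adjusted p = 2.08e-05). The fall was called in 2 of the 6 fits that left out a sample (-0.67 to -0.23), and also with total counts and with the RUVs factor in edgeR and DESeq2. The call in Cre-only cells is close to the threshold, since it was lost when any of the 6 samples was left out (adjusted p 0.0631 to 0.0916). It was also lost with a replicate block within each genotype, in which the replicate number is a term of the model (adjusted p = 0.0625), whereas the RUVs factor in edgeR gave a larger fall of 1.11 on the log2 scale (adjusted p = 3.93e-07). Per kilobase, Pfdn5 was the most abundant of the 4 subunits at rest, at 103 CPM per kb in Cre-only cells, and Pfdn4 the least, at 3.77.

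Among the cytosolic HSP70 proteins, the constitutive and inducible genes moved in opposite directions. Hspa8, which encodes HSC70, was at 1114, 1246 and 1363 normalized CPM in Cre-only cells at rest and at 3178, 3021 and 2984 at 3 h, a 2.47-fold rise (adjusted p = 5.89e-06). Hspa4, an HSP110-type nucleotide exchange factor, rose by 1.51 on the log2 scale. Hspa14 and Hsph1 did not pass the test in either genotype. Hspa1a was at 25.2, 90.9 and 158 normalized CPM in Cre-only cells at rest and at 1.60, 1.70 and 1.40 at 3 h. Its c-k/o samples were at 132, 53.1 and 71.3 at rest and at 1.22, 5.25 and 1.59 at 3 h. All resting samples were far above all 3-h samples, although the resting samples of a group differed among themselves by 6.27-fold in Cre-only and 2.49-fold in c-k/o cells. The fall was 57.9-fold in Cre-only cells (log2 fold change -5.85 ± 0.74, adjusted p = 1.44e-05) and 32.1-fold in c-k/o cells (-5.01 ± 0.70, adjusted p = 3.53e-05). Its size rested on single samples. In Cre-only cells it ranged from 36.7-fold without resting replicate 3 to 78.8-fold without resting replicate 1. In c-k/o cells it ranged from 23.3-fold without resting replicate 1 to 59.9-fold without 3-h replicate 2. The call held whichever sample was left out. Hspa1b was at 40.6, 161 and 285 in resting and 2.85, 2.55 and 3.38 in 3-h Cre-only cells, and at 234, 84.3 and 121 and at 3.67, 7.61 and 2.65 in c-k/o cells. Its log2 fold changes were -5.79 and -4.99. The fall in Cre-only cells ranged from 34.3-fold without resting replicate 3 to 76.0-fold without resting replicate 1.

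Hspa1a (chr17:35106144-35109069) and Hspa1b (chr17:35093381-35096183, both on the minus strand) cannot be separated with confidence. Their coding sequences were 99.4% identical and the 250 bases before their starts 98.8% identical. The sources used here do not state how the counting treated reads that fit both genes. The ratio of Hspa1a to Hspa1b per kilobase was 0.556 ± 0.0346 in resting Cre-only and 0.570 ± 0.0317 in resting c-k/o cells. Per kilobase, Hspa8 exceeded Hspa1a by 6.08- to 31.1-fold in the 6 resting samples and by 435- to 2602-fold in the 6 activated ones. With the RUVs factor in edgeR, the falls of Hspa1a and Hspa1b kept their direction, became smaller and missed the threshold. That of Hspa1a was then 14.7-fold in Cre-only cells (adjusted p = 0.0945) and 8.96-fold in c-k/o cells (adjusted p = 0.0947). In DESeq2 with the factor both calls of Hspa1a held, at 18.8- and 10.5-fold (adjusted p = 0.000483 and 0.00619).

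The 7 cytosolic J proteins, which deliver clients to HSP70 and start its ATP hydrolysis, were split in the same way. Dnajc2, which acts at the ribosome, and Dnaja2 rose by 1.59 and 1.03 on the log2 scale in Cre-only cells. Dnajb4 was at 100, 105 and 121 normalized CPM in Cre-only cells at rest and at 12.5, 11.8 and 13.95 at 3 h. This 8.55-fold fall (log2 fold change -3.10 ± 0.20, adjusted p = 5.18e-08) was matched by 8.22-fold in c-k/o cells. Dnajb1, the main J protein partner of inducible HSP70, was at 135, 208 and 253 at rest and at 66.6, 64.9 and 61.7 at 3 h, a 3.08-fold fall (adjusted p = 2.79e-05), with a 3.29-fold fall in c-k/o cells. Dnaja1, Dnajb6 and Dnajc7 did not pass the test in either genotype, but each was called lower in Cre-only cells in some alternatives, with total counts and with at least 10 counts in every sample among them. Dnajc7 was called lower in c-k/o cells in 6 alternatives and Dnaja1 with total counts and without resting replicate 2, while Dnajb6 went from 0.14 to -0.13 and -0.19 with the RUVs factor in edgeR and DESeq2, not called in any of these fits. Dnaja1 ranged from 291 to 450 normalized CPM in resting and from 264 to 282 in 3-h Cre-only cells (log2 fold change -0.43 ± 0.21, adjusted p = 0.0808).

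**Figure D2:**
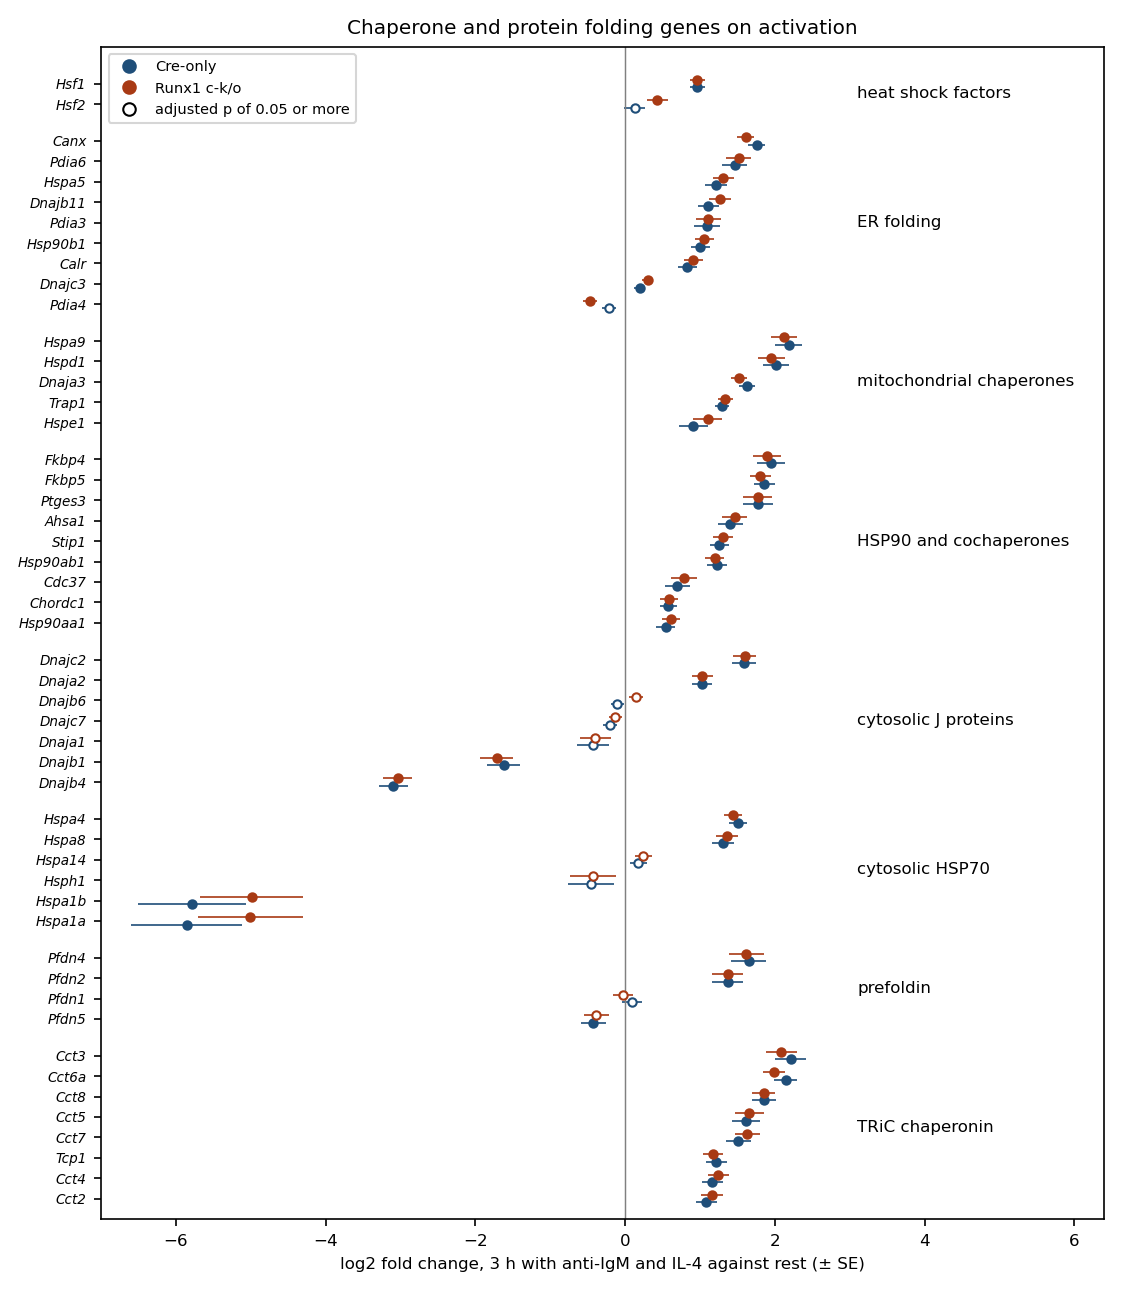
The horizontal axis gives the log2 fold change of each of the 50 genes from rest to 3 h with anti-IgM and IL-4, with its standard error, for Cre-only (blue) and c-k/o cells (red), and open points did not pass the test. The genes are ordered within the 8 groups, nearly all chaperonin, HSP90, mitochondrial and ER genes lie to the right of 0, and Hspa1a, Hspa1b, Dnajb4 and Dnajb1 lie far to the left in both genotypes.

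All 9 genes of HSP90 and its cochaperones rose in both genotypes, with log2 fold changes of 0.54 to 1.95 in Cre-only cells. Fkbp4 and Fkbp5, immunophilins that bind HSP90 in steroid receptor complexes, rose by 1.95 and 1.86, and Ptges3, the cochaperone p23, by 1.78. Fkbp4 was at 77.6, 79.4 and 74.0 normalized CPM in resting and at 296, 305 and 293 in 3-h Cre-only cells, and at 78.2, 119 and 75.3 and at 436, 289 and 289 in c-k/o cells. The 2 cytosolic HSP90 genes differed in the size of their rise. Hsp90ab1, the constitutive form, was at 1846, 2035 and 2018 normalized CPM in resting and 4694, 4496 and 4618 in 3-h Cre-only cells (log2 fold change 1.23 ± 0.13, adjusted p = 2.55e-06). Hsp90aa1, the inducible form, was at 563, 656 and 698 at rest and at 880, 968 and 943 at 3 h (0.54 ± 0.13, adjusted p = 0.0018), the smallest rise of the group in Cre-only cells. Per kilobase Hsp90ab1 exceeded Hsp90aa1 by 3.79- to 4.30-fold in the resting and by 6.09- to 6.99-fold in the 3-h Cre-only samples, which did not overlap. The c-k/o samples did not overlap either, at 3.87- to 5.05-fold and 6.13- to 6.70-fold. Hsp90ab1 was the most abundant of the 50 genes per kilobase in every group (656 CPM per kb at rest and 1535 at 3 h in Cre-only cells), followed by Hspa8 and Hspa5. The rise of Hsp90aa1 was not called when the RUVs factor was added (adjusted p = 0.117 in Cre-only and 0.0800 in c-k/o cells in edgeR). Nor was that of Cdc37, the cochaperone that brings kinases to HSP90, whose log2 fold change went from 0.70 to 0.01 in edgeR and to -0.10 in DESeq2 in Cre-only cells, and from 0.79 to 0.05 and -0.01 in c-k/o cells. Chordc1 lost its call in Cre-only cells in DESeq2 with the factor (adjusted p = 0.0623).

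The 5 mitochondrial chaperones rose in both genotypes, and their summed level showed the largest ratio of the 8 groups, 3.62 in Cre-only and 3.56 in c-k/o cells. Hspa9, the mitochondrial HSP70, was at 202, 219 and 209 normalized CPM at rest and at 905, 1014 and 947 at 3 h in Cre-only cells, a log2 fold change of 2.18. Hspd1, which encodes HSP60, was at 180, 224 and 248 at rest and at 840, 928 and 865 at 3 h. It rose by 2.01 on the log2 scale, the mitochondrial J protein Dnaja3 by 1.63 and Trap1, the mitochondrial HSP90, by 1.29. Hspe1 encodes HSP10, the lid of the HSP60 chamber, and rose less, by 0.91 on the log2 scale. Its call was lost in both genotypes with the RUVs factor, in edgeR (0.21, adjusted p = 0.291 in Cre-only cells, and 0.33, adjusted p = 0.107 in c-k/o cells) and in DESeq2. Per kilobase the ratio of Hspd1 to Hspe1 was 1.199 to 1.32 in resting and 2.56 to 2.95 in 3-h Cre-only samples. In c-k/o cells it was 1.21 to 1.32 at rest and 2.02 to 2.65 at 3 h, so in both genotypes the resting and 3-h samples did not overlap. The annotated spans of the 2 genes overlap on opposite strands, and the strand setting of the counting is not given in the sources used here.

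Of the 9 ER folding genes, 8 rose in both genotypes. Hspa5 (chr2:34627490-34632051), the ER HSP70 that holds chains as they enter the ER, was at 753, 813 and 800 normalized CPM in Cre-only cells at rest and at 1657, 1953 and 1869 at 3 h (2.32-fold, adjusted p = 9.19e-06). Hsp90b1 rose by 1.01 on the log2 scale. The lectin chaperone Canx rose most in the group, by 1.76 in Cre-only and 1.61 in c-k/o cells, and the soluble lectin Calr rose by 0.83 and 0.91. Pdia6 rose by 1.46, Dnajb11 by 1.11 and Pdia3 by 1.09 in Cre-only cells. Dnajc3, an ER J protein that also inhibits the kinase PERK, changed least of the genes that rose: it was at 77.4, 77.2 and 78.5 at rest and at 82.4, 94.5 and 90.3 at 3 h (log2 fold change 0.20 ± 0.07, adjusted p = 0.0266). This call held in only 1 of the 6 fits that left out a sample, and it was lost with a replicate block within each genotype (adjusted p = 0.0818), with DESeq2's size factors or total counts, without a filter, with at least 10 counts in every sample, in DESeq2's Wald test, and with the RUVs factor in edgeR and DESeq2 (log2 fold changes of 0.04 to 0.20 over these fits). In c-k/o cells its rise of 0.30 lost the call only in DESeq2 with the factor. The 8 genes that rose held the 6 printed with an ER stress element and 2 of the 3 without one, Pdia3 and Dnajb11. Pdia4 went the other way. It was at 215, 220 and 252 normalized CPM in resting and 184, 205 and 203 in 3-h Cre-only cells (-0.21 ± 0.09, adjusted p = 0.0526). Its c-k/o samples were at 282, 329 and 306 at rest and at 221, 226 and 215 at 3 h, a fall of 1.38-fold that passed the test (-0.47 ± 0.09, adjusted p = 0.000543). The fall in Cre-only cells passed it in 7 alternatives, DESeq2's Wald test among them (-0.30, adjusted p = 0.00206). The resting and 3-h samples did not overlap in either genotype.

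**Figure D3:**
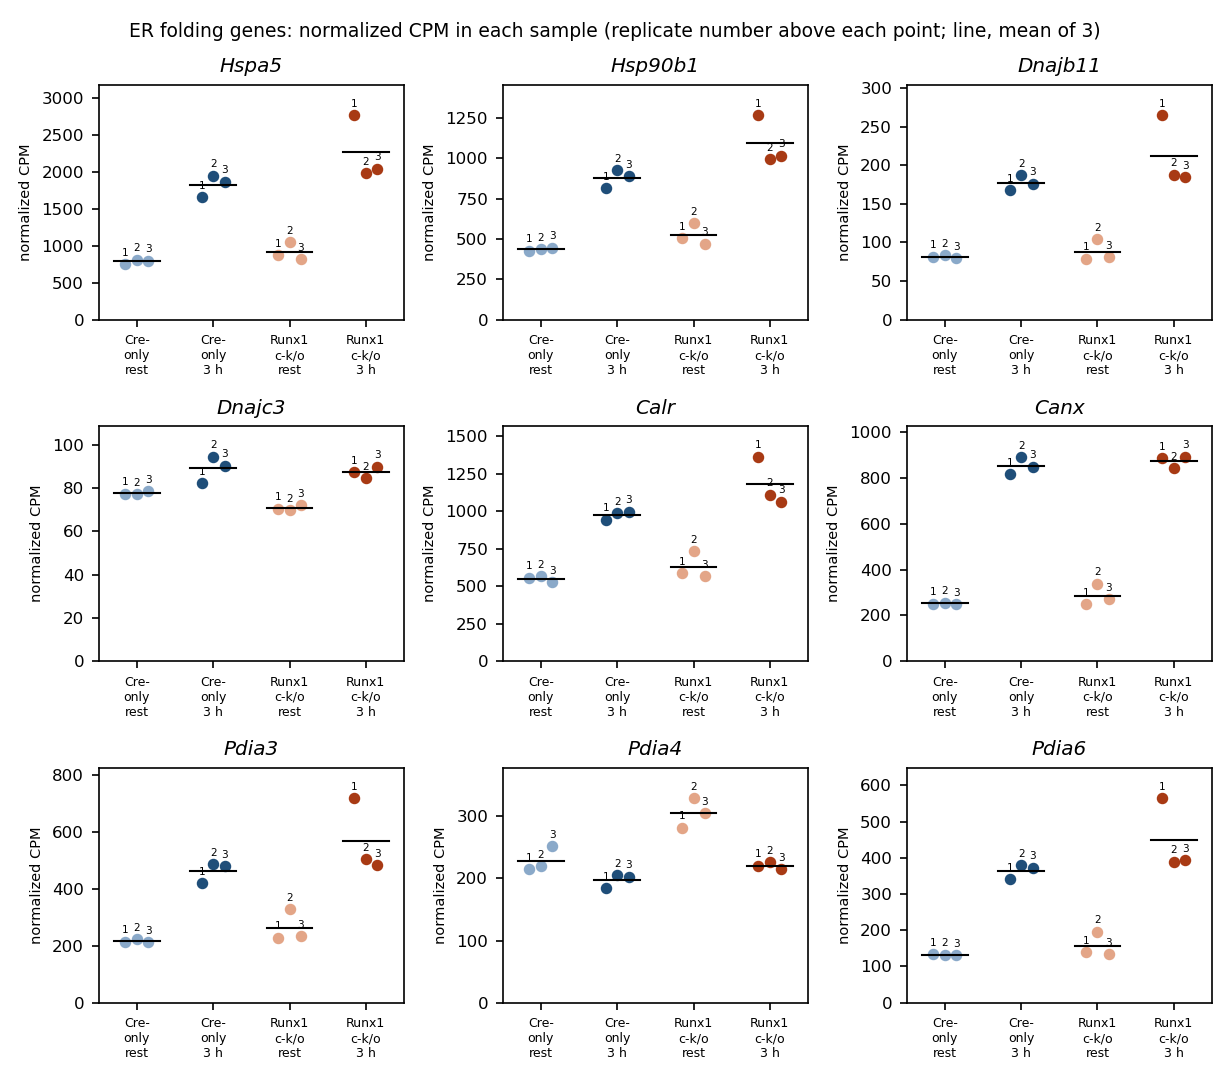
Each panel gives the normalized CPM (vertical axis, from 0) of an ER folding gene in each of the 12 samples, with replicate numbers above the points and a line at the mean of 3. All genes but Pdia4 are higher in the 3-h groups, and the resting c-k/o samples of Pdia4, at 282 to 329, lie above the resting Cre-only samples, at 215 to 252.

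The heat shock factor HSF1, which drives inducible chaperone genes, rose in RNA while the inducible HSP70 genes fell. Hsf1 was at 58.3, 60.0 and 61.9 normalized CPM in resting and at 117, 118 and 117 in 3-h Cre-only cells, a log2 fold change of 0.97 (adjusted p = 2.22e-06), and of 0.96 in c-k/o cells. Hsf2, a related factor with roles in development, was low, at 9.22 to 16.0 normalized CPM over all 12 samples. It did not pass the test in Cre-only cells (0.13 ± 0.14, adjusted p = 0.413) and rose in c-k/o cells (0.43 ± 0.14, adjusted p = 0.0159), and the difference between these changes did not pass the interaction test (0.30 ± 0.20, adjusted p = 0.999). The call in c-k/o cells held in 4 of the 6 fits that left out a sample, and was lost with total counts, with the RUVs factor in edgeR and DESeq2 and in a fit of only the 2 groups compared (adjusted p 0.0598 to 0.165).

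The changes in the 2 genotypes come from different samples and could be set side by side. Over the 50 genes the log2 fold changes correlated with a Pearson r of 0.997, and of 0.991 over the 46 genes left without Hspa1a, Hspa1b, Dnajb1 and Dnajb4. This is a correlation across genes that share the same libraries, and it is given as a description. The call was the same in both genotypes for 47 of the 50 genes. The exceptions were Pfdn5, Pdia4 and Hsf2, whose calls changed in some alternatives. The median absolute difference of the log2 fold changes was 0.06, and 46 genes differed by less than 0.25. The differences ranged from -0.26 for Pdia4 to 0.85 for Hspa1a. The correlation and these counts are given for the 50 genes alone, so whether other genes were as alike was not tested.

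The 6 resting samples were not alike for some stress-inducible genes, but a wide spread was less common among the 50 genes than among all tested genes. The highest and lowest of these samples differed by over 2-fold for 4 of the 50 genes (8%), Hspa1b, Hspa1a, Hsph1 and Dnajb1, and for 20.7% of all tested genes. At 3 h this held for 2 of the 50, Hspa1a and Hspa1b, and for 30.0% of all tested genes. Within a genotype, resting Dnajb1 ranged by only 1.87-fold in Cre-only and 1.67-fold in c-k/o cells. Hsph1, an HSP110 protein that recharges HSP70 with ATP, was at 238, 377 and 523 normalized CPM in the resting Cre-only samples and at 607, 242 and 315 in the resting c-k/o samples, but at 267 to 296 in all 6 activated samples. The order of the samples was shared: Hspa1a, Hspa1b, Hsph1, Dnaja1, Dnajb1 and Dnajb4 were lowest in replicate 1 and highest in replicate 3 of the resting Cre-only cells, and lowest in replicate 2 and highest in replicate 1 of the resting c-k/o cells. This exact order within both genotypes was found for these 6 of the 50 genes and for 4.23% of all tested genes, and the pattern was chosen after the values were seen. The order is that of Hspa1a, which therefore matches by definition, and Hspa1b cannot be separated from it with confidence. All 6 encode HSP70, HSP110 or J proteins of the cytosol. Macrophage and monocyte markers were also spread at rest, with a summed level of 461 to 582 normalized CPM in Cre-only and 405 to 891 in c-k/o cells, and of 32.9 to 99.4 in the samples taken at 3 h. None of the 8 markers was at 0 in all samples, and their part in the fall of the inducible genes was not tested.

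**Figure D4:**
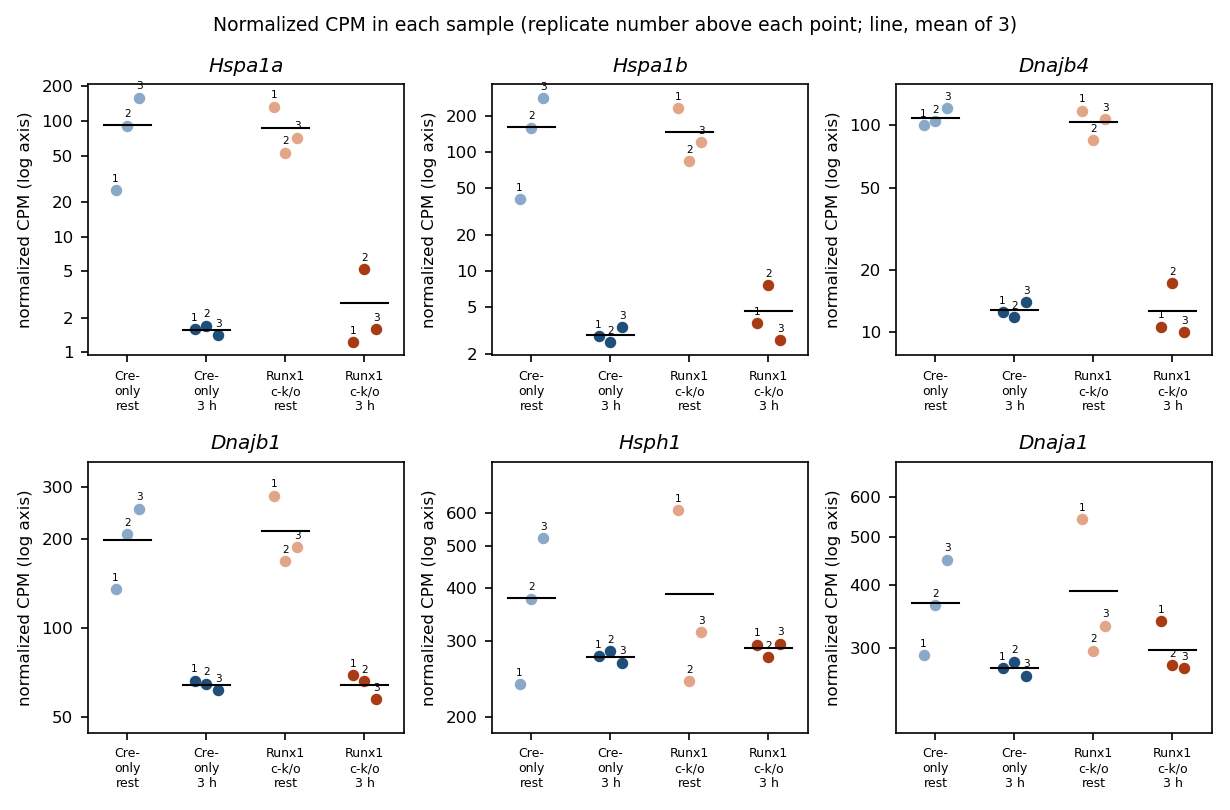
Normalized CPM of 6 genes in each of the 12 samples on a log axis, with replicate numbers above the points and a line at the mean of 3. The 6 genes place the resting replicates of each genotype in the same order, and Hspa1a, Hspa1b, Dnajb4 and Dnajb1 show all activated samples below all resting ones, whereas Hsph1 samples overlap.

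Further genes of the same pathways, from lists that hold no member of the 50, mostly rose as well. Of 124 listed genes 119 were tested, and in Cre-only cells 73 rose and 19 fell, with a median log2 fold change of 0.54, against 38.6% of all tested genes higher and 36.4% lower. In c-k/o cells 72 rose and 20 fell, against 37.7% and 36.6%. The counts of single lists in the following are for Cre-only cells and are to be read against the same shares. Of 13 partners of prefoldin and the chaperonin 12 rose, led by Pdrg1 (1.85), and of 12 mitochondrial folding factors and proteases 10 rose, led by the protease subunit Clpp (1.87). Among 14 other HSP90 cochaperones 10 rose, led by the cyclophilin Ppid (1.89), and 1 fell. Among 21 other J proteins 11 rose, led by Dnajc11 (1.72), and 2 fell. Of 13 tested HSP70 and HSP110 cofactors 8 rose and 3 fell. Bag2, a nucleotide exchange factor, went from 1.26 to 6.65 normalized CPM, and Hspa12a, a distant HSP70 relative, from 5.94 to 0.179, close to the floor of 3 counts. In the list of further ER folding and oxidation factors 14 of 24 rose, led by the glucosidase Mogs (2.29), and 5 fell. Ero1lb, an oxidase that recharges disulfide isomerases, went from 325 ± 16.1 to 93.5 ± 5.22 normalized CPM in Cre-only and from 423 ± 55.8 to 96.8 ± 8.25 in c-k/o cells. Sensors and effectors of the unfolded protein response and of ER-associated degradation were mixed, with 7 of 16 higher and 4 lower, a share of higher genes close to that of all tested genes. Xbp1, a transcription factor of that response, rose by 1.96 and Atf4 by 1.08 on the log2 scale, whereas Eif2ak3, which encodes PERK, fell by 1.54 and Herpud1 by 0.53. Of 6 tested small heat shock proteins and clearance factors 4 fell, including Hspb1 (-1.74, from 2.11 normalized CPM), and Vcp rose by 1.24. No gene of these lists was called between genotypes at rest, at 3 h or in the interaction by edgeR, where 7, 15 and 3 of the 119 had an unadjusted p under 0.05, against 11.1%, 16.2% and 5.07% of all tested genes.

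The next question was whether loss of Runx1 changed these genes at rest. A single gene of the 50, Pdia4 (chr6:47746141-47763511), was called higher in c-k/o cells and none was called lower, against 0.731% and 0.761% of all tested genes. Pdia4 encodes the disulfide isomerase ERp72. Its 3 resting c-k/o samples, at 282, 329 and 306 normalized CPM, all lay above the Cre-only samples, at 215, 220 and 252. The difference was 1.34-fold (log2 fold change 0.42 ± 0.09, edgeR adjusted p = 0.0465). The call is at the edge of the threshold. It was lost in each of the 6 fits that left out a resting sample, with log2 fold changes of 0.36 to 0.49 and adjusted p from 0.0611 to 0.258. It was also lost with total counts, without a filter, with at least 10 counts in every sample, with the replicate block and in a fit of only the resting groups (adjusted p 0.0562 to 0.0957). It held in DESeq2's Wald test, with the RUVs factor in edgeR (adjusted p = 0.00704) and in DESeq2, and in a fit without both libraries that stood apart (adjusted p = 0.00527), an alternative chosen after the data were seen. The summed level of 6 marginal zone B cell markers was also higher in resting c-k/o samples, at 1623 to 1756 against 1134 to 1452 normalized CPM. One of them is Cr2, which encodes CD21. The study reports more surface CD21 on c-k/o B cells and proposes follicular B cells as the likely source. It saw no substantial change in subset proportions, with a trend to more marginal zone cells. The sum of 7 plasma cell markers was 335 to 608 against 335 to 399, while its defining marker Sdc1 was lower, at 5.97 to 8.98 against 17.4 to 18.8. None of these markers was at 0 in all samples, and their part in the difference of Pdia4 was not tested.

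The other 49 genes did not pass the test at rest, and 2 of the 50 had an unadjusted p under 0.05, against 11.1% of all tested genes. The log2 fold changes ranged from -0.32 (Hsf2) to 0.42 (Pdia4), with a median of 0.16 against 0.03 over all tested genes, and 44 of the 50 were above 0, as were 55.6% of all tested genes. This shift rested on replicate 2 of the resting c-k/o cells: without that sample the median was 0.03 and 31 of the 50 were above 0, against a median of -0.01 and 47.0% above 0 over all tested genes. The genes with the smallest p after Pdia4 were Hsf2 (-0.32 ± 0.14, adjusted p = 0.437), Hsp90b1 (0.26 ± 0.12, adjusted p = 0.456) and Dnajc3 (-0.13 ± 0.07, adjusted p = 0.55). The 95% interval of the difference reached a median of 0.32 to either side on the log2 scale. For Hsp90ab1 the interval was -0.13 to 0.42, and for Hspa1a, with its wide spread between samples, -1.27 to 1.09. All c-k/o samples lay above all Cre-only samples for 7 of the 50 genes, against 12% of all tested genes, and below them for 2, against 11.6%. Of the 9 ER folding genes 5 were separated in this way upwards (Hspa5, Hsp90b1, Pdia3, Pdia4 and Pdia6) and Dnajc3 downwards. Hspa5 was at 871, 1048 and 816 normalized CPM in c-k/o cells against 753, 813 and 800 in Cre-only cells, a narrow separation.

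At 3 h none of the 50 genes was called in either direction by edgeR, against 1.47% of all tested genes higher and 1.30% lower. An unadjusted p under 0.05 was found for 3 of the 50 and for 16.2% of all tested genes. DESeq2's Wald test also called none of the 50, against 422 of all 13538 tested genes higher and 287 lower. The median log2 fold change was 0.16, against 0.01 over all tested genes, and 47 of the 50 genes were above 0, as were 51.0% of all tested genes. Without replicate 1 of the 3-h c-k/o cells the median was 0.05 and 37 genes were above 0, against 50.1% of all tested genes. The smallest p belonged to Dnajb6, which was at 157, 136 and 129 normalized CPM in c-k/o and at 118, 122 and 114 in Cre-only cells (log2 fold change 0.25 ± 0.09, adjusted p = 0.195). It was followed by the ER genes Hsp90b1 (0.31 ± 0.12, adjusted p = 0.229), Calr (0.27 ± 0.12, adjusted p = 0.303) and Hspa5 (0.31 ± 0.14, adjusted p = 0.31). Hsp90b1 was at 1267, 993 and 1016 normalized CPM against 816, 927 and 891, so its samples did not overlap, and without both libraries that stood apart it passed the test (0.22, adjusted p = 0.0416), as did 4.11% of all genes tested in that fit in the same direction. With a RUVs factor, edgeR called 1 of the 50 genes higher, Hsp90b1 (0.23, adjusted p = 0.042), against 3.36% of all tested genes. DESeq2 with the factor called 5, Hsp90b1 among them (0.26, adjusted p = 0.00027), against 5.23%. All c-k/o samples lay above all Cre-only samples for 9 of the 50 genes, against 9.50% of all tested genes, and below them for 0, against 12.3%. Of these 9 genes 5 were ER folding genes: Hspa5, Hsp90b1, Calr, Pdia4 and Pdia6. The summed levels of markers of other B lineage cells were also higher in all 3-h c-k/o samples than in all 3-h Cre-only samples. The 7 plasma cell markers summed to 426 to 485 normalized CPM against 309 to 380, of which Xbp1 made up 300.9 to 376.8 against 226.6 to 248.9, while the defining marker Sdc1 was at 2.89 to 3.74 against 3.38 to 4.51. The 6 marginal zone B cell markers summed to 2650 to 3328 against 2327 to 2615. None of these markers was at 0 in all samples, and their part in the levels of the ER genes was not tested.

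**Figure D5:**
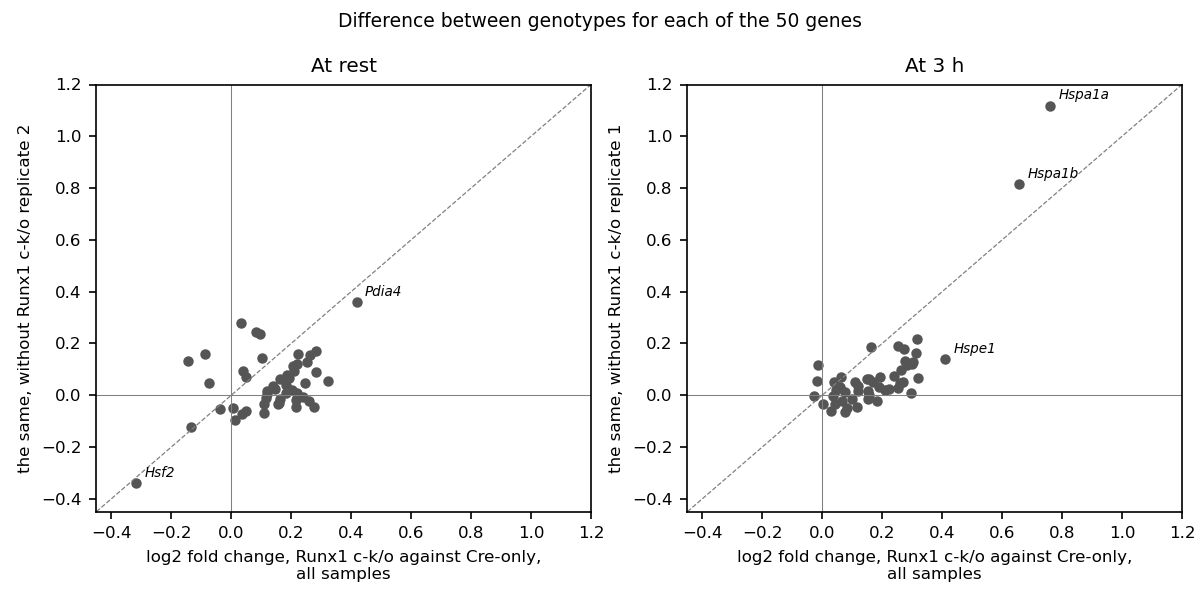
Each point is one of the 50 genes: the horizontal axis gives its log2 fold change between c-k/o and Cre-only cells over all samples, and the vertical axis the same without the c-k/o library that stood apart, at rest (left) and at 3 h (right), with a dashed line of equal values. Most points lie right of the vertical zero line but close to the horizontal one, and the medians go from 0.16 to 0.03 at rest and from 0.16 to 0.05 at 3 h, while Pdia4 at rest stays near the dashed line.

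The last question was whether the response to activation differed between genotypes. The interaction was called for 0 of the 50 genes by edgeR, against 0.0665% of all tested genes with a positive and 0.0148% with a negative interaction, and none of the 50 had an unadjusted p under 0.05. DESeq2's Wald test also called none of the 50, against 62 of all 13538 tested genes with a positive and 21 with a negative interaction. The log2 differences were above 0 for 31 of the 50 genes, with a median of 0.03, against 42.8% of all tested genes. Without replicate 2 of the resting c-k/o cells 42 of the 50 were above 0 (median 0.16), against 52.9% of all tested genes. Without replicate 1 of the 3-h c-k/o cells 10 of the 50 were above 0 (median -0.08), against 47.9%, so the direction turned with the library left out. Without both the count was 31 (median 0.02), against 52.2%, and none of the 50 was called in any of these fits. The smallest p was that of Pdia4 (-0.26 ± 0.13, 95% interval -0.54 to 0.03), followed by Dnajb6 (0.25 ± 0.13), Hsf2 (0.30 ± 0.20) and Dnajc3 (0.11 ± 0.10), all with an adjusted p of 0.999. Hspa1a had the largest value, 0.85 ± 1.02, with an interval of -1.37 to 3.07. Its 3-h level was 1.22 to 5.25 normalized CPM in c-k/o and 1.40 to 1.70 in Cre-only cells, and the high value was that of replicate 2 alone. The interval reached a median of 0.45 to either side on the log2 scale, and smaller differences in response could not be told from 0 for many of the 50 genes.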

How the data were processed

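Poly(A) RNA of splenic B cells was sequenced by the authors as stranded paired-end libraries with ERCC spike-in. They aligned reads with TopHat2 2.0.11 to mm9 (NCBIM37, Ensembl 66) and deposited whole-number featureCounts counts per gene for 12 samples. The strand and multi-mapping settings and the counts of the spike-in are not given in the sources used here.

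Genes kept by filterByExpr (minimum count 10) were tested with edgeR 4.0.16 (TMM, robust quasi-likelihood F test, all 12 samples in 1 fit, group means only) in R 4.3.3, p-values being adjusted by Benjamini-Hochberg across every gene tested (threshold 0.05), after the scripts had been tested on simulated data. Alternatives were DESeq2 1.42.0, its size factors, total counts, other filters, 1 RUVs factor, a replicate block, only the groups compared, and leaving out samples. Same-numbered Cre-only samples at rest and 3 h deviated together (r = 0.275, 0.176 and 0.144). Among the Runx1 c-k/o samples only replicate 3 did (-0.254, -0.264 and 0.254). For differently numbered Runx1 c-k/o samples r ranged from -0.428 (resting replicate 3 with 3-h replicate 1) to 0.477 (resting replicate 2 with 3-h replicate 1). The study calls the samples biological replicates without saying that they are separate animals, so p-values measure the spread between these samples.

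The 50 genes and the lists were chosen with earlier results of these data known. Named by a rule were the called genes with the largest changes on activation, the 4 with the smallest p where genotypes were compared, and the best known chaperones. Not all of these are given with the value in every sample. Further genes of the 50 given with values, such as Cdc37, Chordc1, Pfdn1, Trap1 and, on activation, Dnajc3, were chosen after their values were seen. Positions are from GENCODE vM1, and CPM per kb used the merged exon length.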

Additional observations from a re-analysis of the deposited data

How the results depend on the processing

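The counts of the 50 genes that rose on activation were 32 to 37 in Cre-only and 33 to 39 in Runx1 c-k/o cells over all alternatives. The count that fell in Cre-only cells went from 5 to 8 with DESeq2's size factors, DESeq2's Wald test, only the 2 groups compared and without both libraries that stood apart (an alternative chosen after seeing the data), and to 9 with total counts, at least 10 counts in every sample and the RUVs factor in DESeq2. In Runx1 c-k/o cells it went from 5 to 8 with total counts and with the RUVs factor in DESeq2. At rest the 1 gene called higher, Pdia4, became 0 with total counts, no filter, at least 10 counts in every sample, the replicate block and only the 2 groups compared, 0 to 0 when any sample was left out, and 2 with the RUVs factor in DESeq2. At 3 h the 0 called higher became 1 with the RUVs factor in edgeR, 5 with it in DESeq2 and 1 without both libraries that stood apart. Directions turned on activation in Cre-only cells for Hsf2 with at least 10 counts in every sample (-0.030), for Pfdn1 with total counts (-0.033), with at least 10 counts (-0.068) and with the RUVs factor in edgeR (-0.34) and DESeq2 (-0.45, called), for Hspa14 with the factor (-0.10 and -0.21) and for Cdc37 with it in DESeq2 (-0.10). In Runx1 c-k/o cells the factor turned Hspa14 (-0.062 and -0.13) and Dnajb6 (-0.13 and -0.19), and in DESeq2 Cdc37 (-0.015), and leaving out a sample gave -0.20 to 0.095 for Pfdn1 and -0.67 to 0.053 for Hsph1. Hspa1a between genotypes at rest, -0.09 and not called, became 0.20 and 0.15 with the factor, 0.087 with the replicate block and 0.18 without both libraries that stood apart, and -0.55 to 0.56 when a sample was left out, and its interaction was then -0.060 to 1.31. With the replicate block the counts were 37 and 38 higher and 5 and 5 lower on activation, and with a block within each genotype 36 and 39 higher and 4 and 5 lower. Total counts moved the median log2 fold change of all tested genes on activation in Cre-only cells from 0.03 to -0.10. Over the 50 genes on activation and the genes given with a difference between genotypes or in the interaction, 1852 of 1986 values kept direction and side of the threshold, 53 lost and 57 gained the call, and 24 turned direction. The causes of these changes were not tested.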
